A study of Mus musculus with 12 samples.

Results

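The genes described here encode the nuclear pore and the carriers that move protein and RNA through it. They are the 57 of 23235 gene symbols in the table whose names begin with Nup and a digit, Xpo, Ipo, Kpna, Kpnb, Tnpo, Nxf, Nxt or Thoc. By role, 22 are pore genes, 17 importins, 6 exportins and 12 mRNA export genes. The rule uses only the symbols.

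The nuclear pore is a ring of nucleoporins set in the nuclear envelope, with scaffold rings, a central channel lined by phenylalanine-glycine repeats, a cytoplasmic face and a nuclear basket. Importins carry cargo into the nucleus and exportins carry cargo out, and the small GTPase Ran sets the direction by its nucleotide state. Bulk mRNA leaves on a separate receptor, the pair of NXF1 and NXT1, which is loaded with the help of the THO complex. The growing oocyte has a large nucleus, the germinal vesicle, and stores mRNA and protein for the embryo.

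Poly(A) RNA of mouse oocytes was profiled in 4 groups. They are wild-type (WT) and Mtr4-null oocytes from females at day 14 of age, called growing oocytes in the labels, and the same genotypes at day 21, called germinal vesicle oocytes. MTR4 is a helicase that unwinds nuclear transcripts for degradation by the exosome. The sources used here do not say how, or in which cells, the gene was deleted. The labels list 12 libraries, 3 per group, each of 10 oocytes.

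The table gives 1 mean FPKM per gene and group (fragment counts normalised to transcript length and library size), averaged by the authors. The values below therefore carry no replicate error and no test, and library depth is unknown. In the columns of WT day 14, Mtr4-null day 14 and WT day 21, 40.4%, 40.4% and 38.8% of non-zero values have the repeating decimals of a division by 3. The Mtr4-null day 21 column has 0% of these, and may be a mean of fewer libraries than listed. FPKM are shares of each library's RNA, so a change in RNA per oocyte cannot be seen. Differences are given as Mtr4-null minus WT in log2(FPKM + 1), or as FPKM where that is named, for genes with a mean of at least 1 FPKM over the groups. Genes at least 2-fold apart on that scale are called higher or lower, a rule of size alone.

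Skiv2l2, the older symbol of the gene of MTR4, stood at 27.6 FPKM (WT) and 1.57 FPKM (Mtr4-null) at day 14, and at 26.3 and 3.86 FPKM at day 21. The 10 oocyte markers, among them Gdf9 and Zp3, were all at 29.7 FPKM or more in every group. At day 21, 1 of them was higher and 2 were lower (10% and 20%, beside 20.2% and 25.7% of all genes). Ddx4 stood at 49.0 FPKM (WT) and 134 FPKM (Mtr4-null), Kit at 85.2 and 29.7 FPKM, and Gdf9 at 4054 and 1972 FPKM. Of 10 granulosa and cumulus markers, 5 reached 1 FPKM in each group except Mtr4-null day 21, where 4 did, and they summed to 27.0 and 25.6 FPKM in WT and Mtr4-null at day 14 and to 38.3 and 24.7 FPKM at day 21. Their defining members Foxl2 and Amh were at most 0.320 and 0.254 FPKM. Others on the list differed at day 21, Cyp19a1 at 25.3 FPKM in WT against 1.48 FPKM in Mtr4-null oocytes, and Inha at 1.72 against 10.9 FPKM. Of 10 theca, stromal, endothelial and blood markers, 3 to 5 per group were listed at 0, Hbb-b1 in every group, and the list summed to 13.9 and 11.2 FPKM at day 14 and to 21.5 and 3.45 FPKM at day 21. Most of that sum was Pecam1, at 20.7 FPKM (WT) and 2.13 FPKM (Mtr4-null) at day 21. The part of these markers in the results below was not tested.

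Of the 57 genes, 51 had a mean of at least 1 FPKM. The others were Nup210, just under the limit at 0.854 FPKM, Nup210l at 0.0342 FPKM, the read-through symbol Nup62-il4i1 at 0.395 FPKM, Nxf2 at 0.553 FPKM, and Nxf3 and Nxf7, which were listed at 0 in every group. Nup62cl lay just above the limit at 1.41 FPKM. Kpna1 passed through its Mtr4-null values, since its mean over the WT groups was 0.919 FPKM. The filter mean takes in the Mtr4-null groups, so genes scarce in WT can pass in this way among all genes too. The shares of genes called higher in Mtr4-null oocytes, for these genes and for all genes, include any such genes. Their number among all genes was not counted. The 57 genes summed to 3224 FPKM (WT) and 3024 FPKM (Mtr4-null) at day 14, and to 3166 and 2402 FPKM at day 21. That is 0.538%, 0.508%, 0.524% and 0.370% of all FPKM in the same order. Most of the day 21 gap between the sums lay in Kpna2, at 963 FPKM (WT) and 593 FPKM (Mtr4-null), and Kpna7, at 345 and 194 FPKM.

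**Figure D1:**
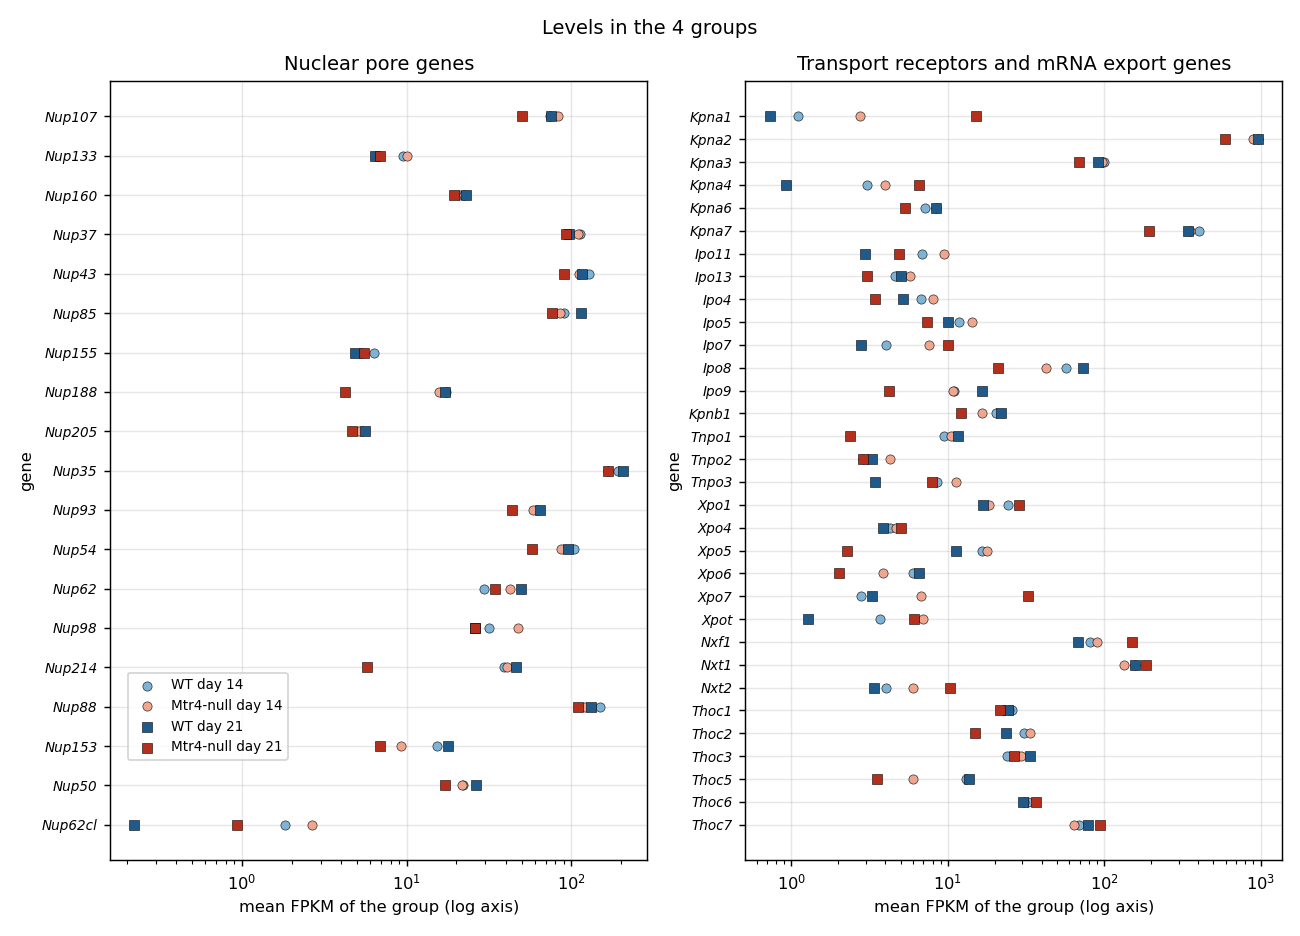
Mean FPKM of each of the 51 genes that passed the filter, on a log axis, in the 4 groups (circles day 14, squares day 21, blue WT, red Mtr4-null). For most genes the circles lie close together, whereas the red square stands apart for genes such as Nup214, at 5.72 FPKM, and Xpo7, at 32.7 FPKM.

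At day 14 the comparison asked whether these genes differ in growing oocytes without MTR4, and they barely did. Of the 51 genes, 1 was higher, the exportin gene Xpo7, beside 8.1% of all 11913 genes tested. None was lower, beside 1.55% of all genes. The median difference was 0.047, and that of all genes 0.052. The median size of a difference, whatever its sign, was 0.21 for these genes and 0.30 for all genes. The order of the 51 levels was also much the same in both genotypes, with a Spearman correlation across genes of 0.97, against 0.91 over all genes.

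At day 21 the same comparison in germinal vesicle oocytes showed wide differences in both directions. Of the 51 genes, 8 were higher (15.7%, beside 20.2% of all genes tested) and 9 lower (17.6%, beside 25.7%). The higher genes were Kpna1, Xpo7, Kpna4, Xpot, Ipo7, Nxt2, Nxf1 and Tnpo3. The lower ones were Nup214, Xpo5, Tnpo1, Nup188, Ipo8, Ipo9, Thoc5, Xpo6 and Nup153. Without the filter on low FPKM, Nxf2 was a ninth higher gene. No pore gene was among the higher ones, and exportins, importins and mRNA export genes were found in both directions. The median was -0.34, and that of all genes -0.27. The median size of a difference was 0.58 for these genes and 0.91 for all genes. The Spearman correlation of the levels between genotypes was 0.78 over the 51 genes and 0.69 over all genes.

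On the deposited scale both shares at day 21 lay below those of all genes. Under median-of-ratios scaling 9 of the 51 genes were higher and 8 lower, beside 3028 and 1965 of the 11913 genes tested. The lower share then lay close to that of all genes. Median-of-ratios scaling adds 0.32 to the median of all genes at day 21, which brings the median of the 51 genes to 0.042 and that of all genes to 0.045. The sign of 9 differences at day 14 and of 10 at day 21 depends on the scaling, all of them at most 0.22 and 0.37 in size on the deposited scale.

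The day 14 and day 21 differences come from separate libraries. Of the 51 genes, 12 lay above 0 at both ages, 20 below 0 at both, 14 above 0 at day 14 and below it at day 21, and 5 the other way round. Of the 11913 genes tested the same counts were 4078, 4575, 2381 and 792. The difference was larger in size at day 21 for 47 genes (92.2%, against 84.2% of all genes). Across the 51 genes the differences at both ages had a Pearson correlation of 0.64 and a Spearman correlation of 0.50, against 0.65 and 0.69 over all genes. Genes are not independent replicates, so these correlations are a description.

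**Figure D2:**
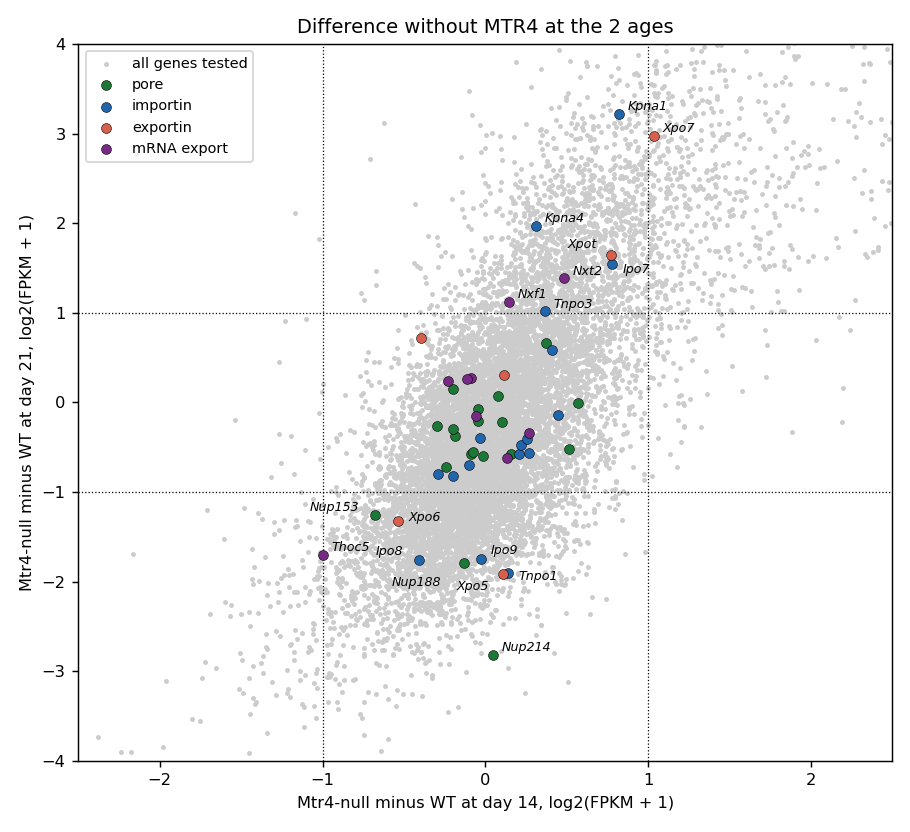
Difference between Mtr4-null and WT on the log2(FPKM + 1) scale at day 14 (horizontal) and day 21 (vertical), with all genes tested in grey and the 51 genes coloured by role; dotted lines mark 2-fold, and genes past it at day 21 are named. The coloured points spread from -2.81 to 3.22 at day 21 but only from -1.0 to 1.04 at day 14; grey points outside the axes are not drawn.

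Among the pore genes, those of 3 large nucleoporins stood lower in Mtr4-null oocytes at day 21 (15.8%, beside 25.7% of all genes). The other 16 genes that passed the filter were under 2-fold, so none was higher, beside 20.2% of all genes. NUP214 sits on the cytoplasmic face of the pore, where exported mRNA is released. Nup214 stood at 39.1 FPKM (WT) and 40.4 FPKM (Mtr4-null) at day 14, and at 46.3 and 5.72 FPKM at day 21. The first 3 groups lie close together and the fourth stands far below, 8.09-fold lower in FPKM than WT of the same age. The differences were 0.05 and -2.81.

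Nup88, whose product anchors NUP214, stood at 149 and 121 FPKM at day 14 and at 132 and 110 FPKM at day 21 in WT and Mtr4-null oocytes. It was thus the more abundant mRNA in every group. The FPKM of Nup88 was 3.82 times that of Nup214 in WT and 3.0 times in Mtr4-null oocytes at day 14, and 2.84 and 19.2 times at day 21.

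The inner ring scaffold showed the same unevenness. Nup188 stood at 17.4 and 15.8 FPKM at day 14 and at 17.2 and 4.25 FPKM at day 21, with differences of -0.13 and -1.79. Its paralog Nup205, which takes a like place in the ring, stood at 5.33 and 5.13 FPKM and at 5.58 and 4.68 FPKM. Their shared partner Nup93 stood at 61.5 and 58.4 FPKM and at 64.2 and 43.3 FPKM, a difference of -0.56 at day 21. Of the 5 inner ring genes Nup188 was the only one past 2-fold. Nup35, the most abundant of the Nup-named genes, stood at 192 and 167 FPKM at day 14 and at 205 and 166 FPKM at day 21.

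NUP153 and NUP50 belong to the nuclear basket, which faces the chromatin. Nup153 stood at 15.4 FPKM (WT) and 9.23 FPKM (Mtr4-null) at day 14 and at 17.8 and 6.88 FPKM at day 21. It was lower at both ages, with differences of -0.68 and -1.25, but under median-of-ratios scaling the latter was -0.90 and short of 2-fold. Nup50 stood at 22.0 and 21.7 FPKM and at 26.2 and 17.0 FPKM.

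None of the 6 Nup-named genes of the outer ring, the Y-shaped scaffold complex, differed 2-fold; its subunit gene Seh1l, which lacks a Nup symbol, is given with the related genes. Their differences ranged from -0.19 to 0.16 at day 14 and from -0.58 to 0.08 at day 21. Nup43, the most abundant of them in WT oocytes, stood at 127 and 111 FPKM at day 14 and at 117 and 89.7 FPKM at day 21. In Mtr4-null oocytes of day 21 Nup37 stood higher, at 92.7 FPKM. Among genes of the central channel, Nup62 stood at 29.5 and 42.4 FPKM at day 14 and at 49.6 and 34.2 FPKM at day 21. The genotype with more Nup62 was therefore Mtr4-null at day 14 and WT at day 21, with differences of 0.51 and -0.52. Nup98 stood at 31.7 and 47.4 FPKM and at 26.04 and 25.9 FPKM, and Nup54 at 103 and 86.9 FPKM and at 95.8 and 57.8 FPKM.

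Importin alphas read the classical nuclear localisation signal on cargo and bind it to importin beta. Kpna2 was by far the most abundant of the 57 mRNAs, at 958 FPKM (WT) and 894 FPKM (Mtr4-null) at day 14, and at 963 and 593 FPKM at day 21. It made up 64.9% and 65.7% of the summed importin alpha FPKM at day 14, and 68.3% and 67.1% at day 21. Kpna7, the importin alpha known from oocytes and early embryos, stood at 406 and 354 FPKM and at 345 and 194 FPKM. Its differences were -0.20 and -0.83. Kpna3 came next, at 99.7 and 97.4 FPKM and at 91.4 and 69.3 FPKM.

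The scarce Kpna1 and Kpna4 were higher in Mtr4-null oocytes, whereas Kpna6 stood at 7.199 and 8.46 FPKM at day 14 and at 8.38 and 5.30 FPKM at day 21, a difference of -0.58. Kpna1 stood at 1.11 FPKM (WT) and 2.73 FPKM (Mtr4-null) at day 14, and at 0.726 and 15.1 FPKM at day 21. The Mtr4-null mean of day 21 was 20.7 times that of WT in FPKM, and the differences were 0.82 and 3.22. This was the widest gap of the 51 genes, but it rests on a WT value under 1 FPKM. Kpna1 also passed the filter only through its Mtr4-null values. Kpna4 stood at 3.04 and 4.002 FPKM and at 0.922 and 6.53 FPKM, with differences of 0.31 and 1.97. Even so, Kpna1 went from 0.0515% to 1.70% of the importin alpha sum at day 21, and that sum was 1409 FPKM (WT) and 883 FPKM (Mtr4-null).

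The importin beta family, which includes the transportins, contacts the pore directly. Ipo8 was its most abundant mRNA in every group, at 57.0 and 42.8 FPKM at day 14 and at 73.5 and 20.98 FPKM at day 21. Its differences were -0.41 and -1.76. Its closest paralog Ipo7 stood at 4.02 and 7.61 FPKM and at 2.77 and 10.0 FPKM, higher in Mtr4-null oocytes at both ages by 0.78 and 1.54. The FPKM of Ipo8 was thus 26.5 times that of Ipo7 in WT and 2.095 times in Mtr4-null oocytes at day 21, against 14.2 and 5.62 times at day 14.

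Transportins carry RNA-binding proteins, and TNPO3 carries splicing factors rich in serine and arginine. Tnpo1 stood at 9.43 and 10.5 FPKM at day 14 and at 11.6 and 2.36 FPKM at day 21, with differences of 0.14 and -1.90. Ipo9 had a like pattern, at 11.02 and 10.8 FPKM and at 16.6 and 4.24 FPKM, and differences of -0.03 and -1.75. For Tnpo1 only the Mtr4-null mean of day 21 stood apart, whereas for Ipo9 the WT mean of day 21 also lay above both means of day 14. Tnpo3 stood at 8.54 and 11.3 FPKM and at 3.44 and 7.97 FPKM, where its difference of 1.02 was just inside the limit and became 0.98 under quantile normalization. Kpnb1, the importin beta that pairs with importin alpha, stood at 20.4 and 16.5 FPKM and at 21.9 and 12.1 FPKM, short of 2-fold at -0.80. The other importins differed by -0.58 to 0.58 at day 21.

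**Figure D3:**
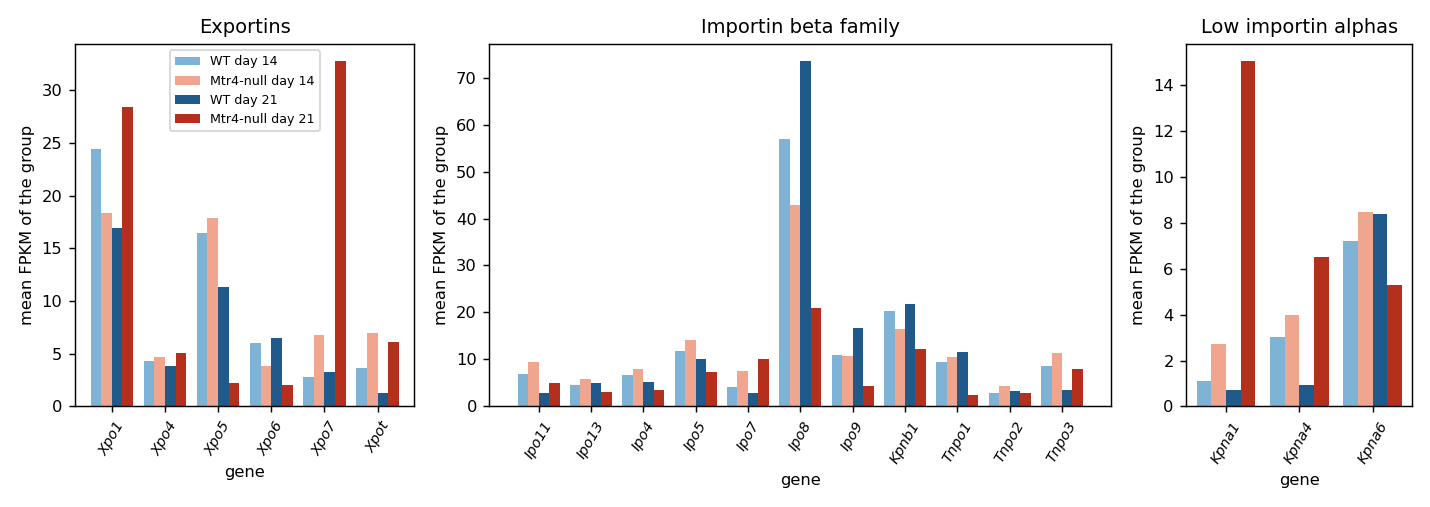
Mean FPKM in the 4 groups for the 6 exportin genes, the 11 importin beta family genes and the 3 scarcest importin alpha genes of WT oocytes (bars from 0, 1 value per group, no error available). In Mtr4-null oocytes of day 21 Xpo7 is the tallest of the 6 Xpo bars, at 32.7 FPKM, and Ipo8 is at 20.98 FPKM against 73.5 FPKM in WT.

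Of the 6 Xpo genes, 2 were higher and 2 lower at day 21 (33.3% each, beside 20.2% and 25.7% of all genes), and the order of their levels was different. Xpo1 encodes CRM1, the general exportin for proteins with a leucine-rich signal, and it was the most abundant of the 6 in 3 of the 4 groups. It stood at 24.4 and 18.3 FPKM at day 14 and at 16.9 and 28.4 FPKM at day 21, so that its differences of -0.40 and 0.72 had opposite signs. Under median-of-ratios scaling the latter was 1.10 and past 2-fold. Xpo7, an exportin that also imports some proteins, stood at 2.78 and 6.74 FPKM at day 14 and at 3.29 and 32.7 FPKM at day 21. It was thus the most abundant Xpo gene in Mtr4-null oocytes of day 21, with 42.8% of their sum against 7.62% in WT. Cse1l, an exportin gene without an Xpo symbol, stood higher, at 37.8 FPKM. The differences of Xpo7 were 1.04 and 2.98. The former was 0.97 under median-of-ratios scaling and 0.77 under quantile normalization, short of 2-fold.

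Xpot exports tRNA. It stood at 3.68 and 6.97 FPKM at day 14 and at 1.28 and 6.11 FPKM at day 21, higher in Mtr4-null oocytes by 0.77 and 1.64. XPO5 exports microRNA precursors. Xpo5 stood at 16.5 and 17.9 FPKM and at 11.3 and 2.26 FPKM, with differences of 0.11 and -1.92, so that it ranked 2 of the 6 in WT and 5 in Mtr4-null oocytes at day 21. Xpo6, the exportin of actin and profilin, stood at 6.02 and 3.84 FPKM and at 6.52 and 2.01 FPKM, with differences of -0.54 and -1.32. Xpo4 differed by 0.11 and 0.31.

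Among mRNA export genes, 2 were higher at day 21, Nxf1 and Nxt2, and 1 was lower, Thoc5 (22.2% and 11.1%, beside 20.2% and 25.7% of all genes). Nxf1 stood at 81.1 and 89.7 FPKM at day 14 and at 68.4 and 149.9 FPKM at day 21, with differences of 0.14 and 1.12. Its cofactor Nxt1 stood at 157 and 134 FPKM and at 157 and 186 FPKM, a difference of 0.24 at day 21. The related cofactor Nxt2 was far scarcer, at 4.01 and 5.997 FPKM and at 3.36 and 10.4 FPKM, with differences of 0.48 and 1.38. Nxf2, a relative of Nxf1, stood at 0.170 and 0.193 FPKM and at 0.0254 and 1.82 FPKM. All 4 of these genes had their highest value in Mtr4-null oocytes of day 21, and for Nxf2 that value alone was above 0.2 FPKM.

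The THO complex joins nascent mRNA and hands it to the export receptor. Thoc5 stood at 13.1 and 6.04 FPKM at day 14 and at 13.8 and 3.53 FPKM at day 21. It was lower at both ages, with differences of -1.0 and -1.70. The former lay just short of the limit before rounding, and passed it under both other scalings, at -1.05 and -1.22. The other 5 THO genes differed by at most 0.27 in size at day 14 and by -0.62 to 0.27 at day 21. Thoc7, the most abundant, stood at 68.9 and 63.7 FPKM and at 78.4 and 93.7 FPKM, so the FPKM of Thoc7 was 5.70 times that of Thoc5 in WT and 26.6 times in Mtr4-null oocytes at day 21.

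Related genes outside the 57 also differed between genotypes. At day 21 the median size of a difference was 0.71 for further pore genes, 0.60 for Ran cycle genes and 0.85 for further mRNA export genes. It was 0.58 for the 51 genes and 0.91 for all genes. Of 14 further pore genes none differed 2-fold at day 14, where 8.1% of all genes were higher and 1.55% lower. At day 21 there were 2 higher and 2 lower genes (14.3% each, beside 20.2% and 25.7% of all genes), and the median was -0.24. Median-of-ratios scaling gave 4 higher and 1 lower, beside 3028 and 1965 of the 11913 genes tested. Seh1l, a mobile subunit of the outer ring, stood at 29.9 FPKM (WT) and 93.6 FPKM (Mtr4-null) at day 21, Nupl2 at 3.97 and 13.3 FPKM, and the mRNA export factor gene Gle1 at 92.5 and 33.8 FPKM. Of 8 genes of the Ran cycle none differed 2-fold at day 14, beside 8.1% of all genes higher and 1.55% lower. At day 21 the median difference of these 8 was 0.27 and none was lower, beside 25.7% of all genes. Under median-of-ratios scaling 3 were higher at day 21, beside 3028 of the 11913 genes tested. On the deposited scale 1 was higher (12.5%, beside 20.2% of all genes). That gene was Rangrf at 11.5 and 30.4 FPKM, while Cse1l, which returns importin alpha to the cytoplasm, stood at 22.8 and 37.8 FPKM (a difference of 0.71, or 1.09 under median-of-ratios scaling) and Ranbp3 at 67.0 and 42.1 FPKM.

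Of 15 further mRNA export genes 1 was higher and none lower at day 14 (6.67% and 0%, beside 8.1% and 1.55% of all genes). At day 21 there were 4 higher and 3 lower genes (26.7% and 20%, beside 20.2% and 25.7% of all genes), and the median was 0.066. The export adaptor gene Alyref2 stood at 3.75 and 10.2 FPKM at day 14 and at 2.98 and 24.5 FPKM at day 21. At day 21 the adaptor gene Fyttd1 stood at 5.75 and 27.7 FPKM, and Mcm3ap, whose product GANP is the scaffold of the TREX-2 complex, at 15.5 and 3.70 FPKM. Alyref2 at day 14 had a difference of 1.24, which was 0.99 under quantile normalization.

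Between day 14 and day 21 the WT levels of these genes stayed in nearly the same order, with a Spearman correlation of 0.98. None of the 51 genes was higher at day 21, beside 2.02% of all genes, and 4 were lower (7.84%), beside 3.32%. Those were Nup62cl, Tnpo3, Kpna4 and Xpot, with differences of -1.20, -1.11, -1.07 and -1.04 from day 14 to day 21. Ipo11 lay just outside at -0.997, with 6.88 FPKM in WT of day 14 and 2.95 FPKM in WT of day 21. All 5 are scarce. With a minimum mean FPKM of 5 only 1 gene was lower, Tnpo3, and under quantile normalization only 1 other, Nup62cl, at -1.22. The widest gap upward was Nup62, by 0.73.

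In Mtr4-null oocytes 2 of the 51 genes were higher at day 21 than at day 14, beside 9.08% of all genes, and 7 were lower, beside 18.6%. Xpo7 and Kpna1 were the higher ones, by 2.12 and 2.11. Nup214, Xpo5, Tnpo1, Nup188, Ipo9, Thoc2 and Ipo4 were lower, with differences of -2.62, -2.53, -1.77, -1.68, -1.17, -1.13 and -1.03. Median-of-ratios scaling gave 5 higher and 4 lower, beside 1865 and 1020 of the 11913 genes tested. Of the genes lower with age in WT, Nup62cl, Kpna4, Tnpo3 and Xpot had differences of -0.91, 0.59, -0.45 and -0.16 in Mtr4-null oocytes, and Ipo11 had -0.82. The comparisons by age and by genotype share columns, so their values are set side by side and not counted together.

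**Figure D4:**
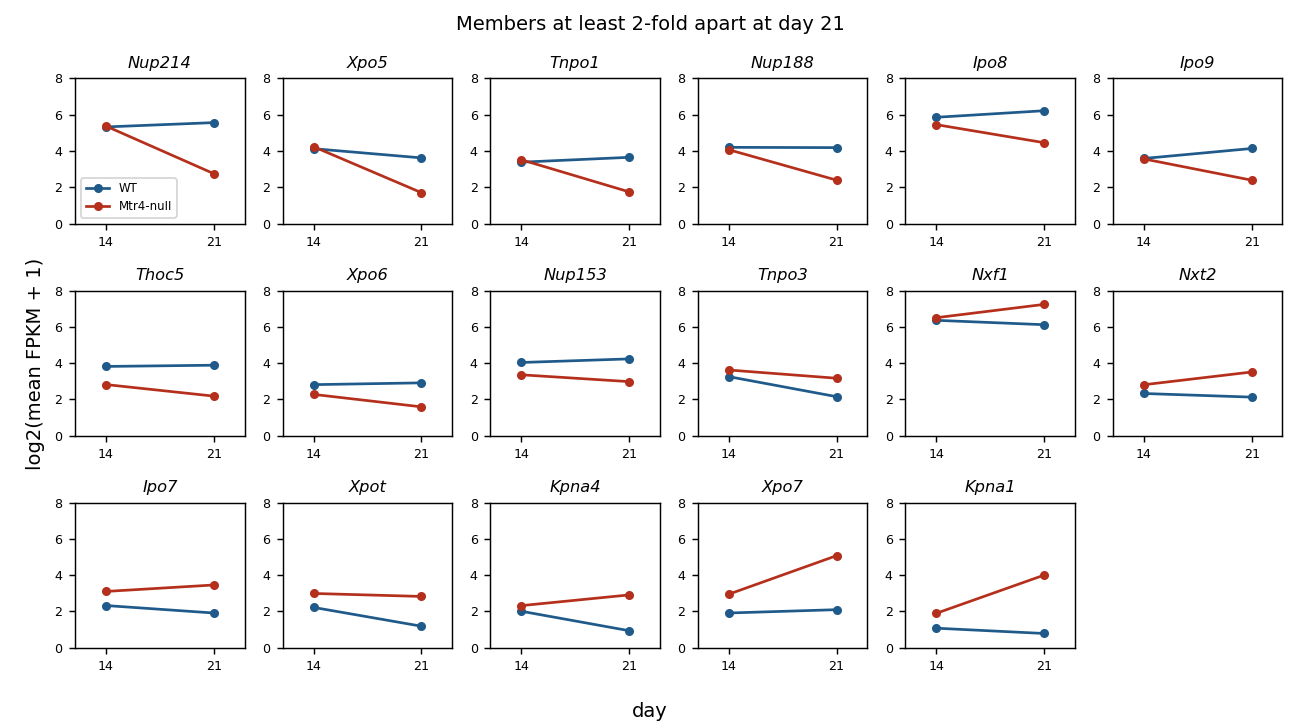
Level on the log2(mean FPKM + 1) scale at days 14 and 21 in WT (blue) and Mtr4-null (red) oocytes, 1 panel for each of the 17 genes at least 2-fold apart at day 21, ordered from the lowest to the highest difference. The lines of Nup214, Xpo5, Tnpo1 and Ipo9 start together at day 14 and part at day 21, whereas those of Xpo7 and Thoc5 are already apart at day 14, with differences of 1.04 and -1.0; lines join group means and no error is available.

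Gene structure was compared in the GENCODE vM21 annotation of GRCm38, a later build than the authors' mm9. It held a coding transcript for 56 of the 57 genes. The 51 genes had a median of 22 exons and a coding length of 2691 bases, against 9 exons and 1359 bases over 9977 of all genes tested (83.7%). The 9 genes lower at day 21 had 20 to 44 exons with a median of 24, and a median 3' untranslated length of 1256 bases. The 8 higher genes had 5 to 28 exons with a median of 22, and a median 3' untranslated length of 2342.5 bases, up to 11758 bases in Xpo7. The other 34 had medians of 19.5 exons and 785 bases. Across the 51 genes the day 21 difference had a Spearman correlation of -0.14 with exon number and of 0.19 with 3' untranslated length, against -0.25 and 0.051 over all genes.

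Exonic bases were shared with another gene for 18 of the genes, for 14 of them on the opposite strand. Smart-seq2 does not keep the strand, so reads there may be counted for either gene. Thoc1 shared 24.3% of its exonic bases with Usp14 and Ipo4 shared 55.3% with the model Gm49378, so their values are uncertain. Xpo7 shared 39 bases with the oocyte histone chaperone gene Npm2 on the same strand, and Npm2 stood at 1308 FPKM (WT) and 309 FPKM (Mtr4-null) at day 21, opposite in direction to Xpo7. Nup214 shared 14 to 251 bases with each of 4 other genes. Importin alpha genes, and Nxf2 with Nxf7, are paralogs, and the sources used here do not say how reads matching several genes were counted.

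The bases just before the start site were read from the RefSeq promoter table (GRCm38.p6), which matched 44 of the 57 genes and 41 of the 51 (80.4%). The first start listed for a gene was used, and the window is 250 bases long and ends at the base before the start. For 37 of the 41 genes a stretch of bases just after that start was found in a GENCODE transcript of the gene. All 41 windows were kept. Windows are shown as examples from both directions, for the 3 lowest and the 3 highest genes of day 21 among those with an entry. Kpna1 and Xpo7 have none. The lowest are Nup214 at chr2:31974200-31974449 on the plus strand, Xpo5 at chr17:46202561-46202810 on the plus strand and Tnpo1 at chr13:98926385-98926634 on the minus strand. The highest are Kpna4 at chr3:69127093-69127342 and Xpot at chr10:121626333-121626582 on the minus strand, and Ipo7 at chr7:110018065-110018314 on the plus strand. Capitals mark matches to the motifs named after the sequences.
Nup214: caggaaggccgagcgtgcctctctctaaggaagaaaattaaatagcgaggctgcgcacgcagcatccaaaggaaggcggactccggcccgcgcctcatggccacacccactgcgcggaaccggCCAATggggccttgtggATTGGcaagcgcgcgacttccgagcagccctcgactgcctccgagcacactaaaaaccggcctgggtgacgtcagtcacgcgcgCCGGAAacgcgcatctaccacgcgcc
Xpo5: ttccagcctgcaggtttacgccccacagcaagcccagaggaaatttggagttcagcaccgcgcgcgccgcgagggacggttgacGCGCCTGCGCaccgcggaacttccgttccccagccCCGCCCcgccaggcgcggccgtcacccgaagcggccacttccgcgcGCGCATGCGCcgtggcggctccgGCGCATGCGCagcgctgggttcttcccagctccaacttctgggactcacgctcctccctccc
Tnpo1: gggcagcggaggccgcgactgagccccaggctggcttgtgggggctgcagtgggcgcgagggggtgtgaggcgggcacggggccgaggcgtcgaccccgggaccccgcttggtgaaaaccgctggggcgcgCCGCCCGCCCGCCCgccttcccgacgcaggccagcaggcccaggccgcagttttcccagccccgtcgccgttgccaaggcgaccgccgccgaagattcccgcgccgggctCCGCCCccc
Kpna4: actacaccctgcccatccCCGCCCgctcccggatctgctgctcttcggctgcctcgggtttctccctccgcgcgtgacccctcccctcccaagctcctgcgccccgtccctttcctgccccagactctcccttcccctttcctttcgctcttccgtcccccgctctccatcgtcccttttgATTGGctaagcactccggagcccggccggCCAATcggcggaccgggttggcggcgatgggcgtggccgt
Xpot: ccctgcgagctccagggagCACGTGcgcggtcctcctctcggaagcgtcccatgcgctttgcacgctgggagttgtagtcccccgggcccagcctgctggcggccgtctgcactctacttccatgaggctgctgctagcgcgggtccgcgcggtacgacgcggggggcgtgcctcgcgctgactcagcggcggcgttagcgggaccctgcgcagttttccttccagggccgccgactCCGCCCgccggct
Ipo7: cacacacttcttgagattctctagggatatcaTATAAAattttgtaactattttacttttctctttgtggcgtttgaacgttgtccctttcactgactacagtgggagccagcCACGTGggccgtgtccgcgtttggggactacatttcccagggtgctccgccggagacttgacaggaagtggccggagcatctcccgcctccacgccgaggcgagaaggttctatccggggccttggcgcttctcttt

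Motifs were searched on both strands, and matches may overlap. They were the GC box GGGCGG, the CCAAT box CCAAT, the ETS core CCGGAA, the TATA box TATAAA, the core of the NRF1 motif and the E-box CACGTG. The GC box was found in 26 of the 41 windows (63.4%), against 32.9% of all 27025 windows of that length, which include those of non-coding genes. The CCAAT box was found in 21 (51.2%, against 34.5%), the ETS core in 12 (29.3%, against 12.2%) and the E-box in 6 (14.6%, against 6.05%). The NRF1 core was found in 5 (12.2%, against 3.86%) and the TATA box in 2 (4.88%, against 13.0%). The window of Xpo5 held 3 NRF1 matches and that of Tnpo1 4 GC boxes, 3 of them overlapping, whereas Ipo7 held a TATA box. All 27025 windows include those of genes that did not pass the filter, so no conclusion is drawn from the comparison with them. Of the 11913 genes tested, 8394 had a window. With that many unmatched, no conclusion is drawn from a comparison with these genes either. Their shares lay nearer to those of the 41 windows for each of the 6 motifs, at 57.4% for the GC box, 37.6% for the CCAAT box, 23.1% for the ETS core, 8.58% for the E-box, 8.91% for the NRF1 core and 6.64% for the TATA box. Median GC content was 63.2% in the 41 windows, 59.6% in those of genes tested and 52% in all, and the median number of CpG pairs was 18, 16 and 6. The 9 lower genes of day 21 all had an entry, with a median of 28 CpG pairs, and 6 of the 8 higher ones did, with a median of 19.5. A match is a run of letters and does not show that a factor binds there.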

How the data were processed

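The deposited table holds FPKM, 1 column per group; per the column headers and the values, each column is a mean the authors took over the libraries of a group. Per the labels' protocols, each Smart-seq2 library came from 10 lysed oocytes, with ERCC RNA added as a spike-in and oligo-dT priming. The submitters' processing notes name the build mm9 and the tools Cufflinks 2.2.1 and TopHat2 2.1.1, without their roles. From the deposited FPKM, differences of log2(FPKM + 1) between group means were computed with Python 3.11.15, numpy 2.4.6 and pandas 2.3.3 for the 11913 genes with a mean of at least 1 FPKM, with 2-fold as a limit of size. These steps were tested on simulated data. With means alone the planned limma fits, refits without single libraries and replicate blocks could not be run. Alternatives were a pseudocount of 0.1, no filter, a minimum of 5 FPKM, median-of-ratios scaling (over genes at 1 FPKM or more in every column) and quantile normalization. Named are genes past 2-fold between genotypes, the 3 most abundant of each role, genes at the limits, and the 3 widest differences in each related list; partners and paralogs of these were chosen after their values were seen. The genes and lists were chosen with earlier results of these data known. RefSeq symbols matched 56 of the 57 genes.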

Additional observations from a re-analysis of the deposited data

How the results depend on the processing

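No paired analysis was possible because the table holds 1 mean per group, and for the same reason no library could be left out and no error, interval or depth limit can be given. Of the 17 differences past 2-fold at day 21, 15 stayed past it under all 5 alternatives that kept the gene; Nup153 (-0.90, median-of-ratios) and Tnpo3 (0.98, quantile) did not. None of the 17 changed sign under these alternatives. Between genotypes at day 14, the main counts were 1 higher and 0 lower. They became 2 and 1 with a pseudocount of 0.1, 0 and 1 under median-of-ratios scaling, and 0 and 1 under quantile normalization, where the median went from 0.047 to -0.072. At day 21, a minimum mean of 5 FPKM left 5 higher genes in place of 8. The day 21 median of -0.34 became 0.042 under median-of-ratios scaling, beside 0.045 for all genes, and -0.22 without a filter. In WT by age, 1 gene in place of 4 was lower with the minimum of 5 FPKM, Tnpo3, and 1 under quantile normalization, Nup62cl. In Mtr4-null oocytes by age, 1 gene in place of 2 was higher with the minimum of 5 FPKM and 5 under median-of-ratios scaling. There, 4 in place of 7 were lower under both median-of-ratios scaling and quantile normalization, and the median of -0.41 became 0.015 and -0.17. Of the 11913 genes tested, 1082 were higher and 2216 lower as deposited, and 1865 and 1020 under median-of-ratios scaling. The counts and medians were called moved when they differed by over 1.5 times or 0.1, and the other 42 of these values did not move. The cause of each move was not tested.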
